A study of Mus musculus with 12 samples.

Results

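The genes described here are 38 mouse genes of the lysosome: its cathepsins and other hydrolases, its membrane proteins, subunits of the proton pump V-ATPase, and the transcription factors TFEB, TFE3 and MITF. They were chosen by name, as a list of symbols mapped to the Ensembl identifiers of the count tables, out of 31053 genes counted. Earlier results of these data were known when the list was chosen. All 38 passed the filter on low counts, which left 13141 genes for testing. RNA was sequenced from dendritic cells that wild-type C57BL6 marrow had given rise to by day 7 of culture, when live cells bearing the integrin chain CD11c had been enriched. The groups were tolerogenic cells with lipopolysaccharide (TolDC + LPS), tolerogenic cells without it (TolDC), control cells with it (BMDC + LPS) and control cells without it (BMDC), with 3 libraries in each. TolDC had been made with vitamin D3 and IL-10 and BMDC without them. LPS, a bacterial cell-wall component, activates dendritic cells through Toll-like receptor 4. No dose of any agent and no length of the LPS exposure is stated in the labels. They also do not say whether the libraries of a group came from separate mice or cultures, so a p-value here sets a difference against a spread between libraries that may be technical.

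Lysosomes break down proteins, glycans and lipids at acid pH. The V-ATPase, built from a cytosolic V1 part that splits ATP and a membrane V0 part that carries protons, acidifies them. In dendritic cells the acid proteases of endosomes and lysosomes remove the invariant chain from MHC class II molecules and cut antigens into peptides, and the extent of this breakdown affects how much antigen is left for presentation. TFEB, TFE3 and MITF belong to the MiT/TFE family of basic helix-loop-helix factors. They bind E-boxes with the core CACGTG, and many lysosomal genes carry a longer form of it near their start sites, known as the CLEAR element.

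That element was searched for in the members' promoters, here the 250 bases before and 50 bases after the annotated start, taken from RefSeq on GRCm38.p6. Of the 38 members, 32 had an entry. The core CACGTG, which reads the same on both strands, was in 10 of the 32 (31.2%), against 2187 of the 27025 genes with a promoter (8.09%). The 8-base form TCACGTGA, which contains the core and is also a palindrome, was in 5 of the 32 (15.6%), against 304 of 27025 (1.12%). With a G before it and a C after it, as in the longer palindrome of the CLEAR element, it was in 0 of the 32 and in 100 of 27025 (0.37%), which says only that these letters are not in these windows. The 5 windows are shown because they hold the form nearest to the CLEAR element. The capitals mark TCACGTGA, and each sequence runs 5′ to 3′ along the strand of its gene.
Ctsd, chr7:142387908-142387937, minus strand: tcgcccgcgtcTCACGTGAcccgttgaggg
Ctsa, chr2:164833757-164833786, plus strand: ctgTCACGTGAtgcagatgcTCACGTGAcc
Mcoln1, chr8:3500462-3500491, plus strand: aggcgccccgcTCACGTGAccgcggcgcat
Atp6v0d1, chr8:105566050-105566079, minus strand: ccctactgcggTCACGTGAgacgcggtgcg
Atp6v1a, chr16:44139373-44139402, minus strand: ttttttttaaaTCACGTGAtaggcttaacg
Ctsa held the form at 2 places. The 250 bases before the start of Lamp1 are shown as well because they held the core 4 times, more than any other member. None of the 4 had both flanking bases of the 8-base form. Capitals mark CACGTG.
Lamp1, chr8:13158911-13159160, plus strand: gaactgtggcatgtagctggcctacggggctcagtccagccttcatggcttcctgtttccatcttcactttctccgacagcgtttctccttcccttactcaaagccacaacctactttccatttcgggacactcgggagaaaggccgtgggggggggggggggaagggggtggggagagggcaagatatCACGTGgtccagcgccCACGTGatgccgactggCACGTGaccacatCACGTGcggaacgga
Ctsl, Gaa, Glb1 and Lgmn held the core alone. A match describes the sequence and does not show binding.

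The libraries held 21844405 to 41764975 reads assigned to genes, so that 3 counts were worth at most 0.137 CPM (counts of a gene relative to all counts of its library). Levels of a gene are given in CPM on library sizes scaled by TMM, and changes as edgeR log2 fold changes ± SE. Itgax, which encodes CD11c, was at 1250 to 2252 CPM in all 12 libraries and Cd74, the invariant chain, at 4146 to 8833 CPM. The dendritic cell gene Flt3 was low, at no more than 1.75 CPM, and Zbtb46 was at 14.5 to 69.2 CPM. Of 8 dendritic cell markers, 1 was called higher and 6 lower in TolDC than in BMDC with LPS (34.3% and 33.7% of all genes). Without LPS, 2 were higher and 4 lower (32% and 30.4% of all genes). The macrophage receptor Adgre1 was at 457, 634 and 589 CPM in TolDC + LPS, 123, 125 and 127 CPM in TolDC, 222, 327 and 317 CPM in BMDC + LPS, and 31.3, 39.9 and 40.7 CPM in BMDC, while Cd163 had no counts in 11 libraries. Summed over 7 macrophage markers, levels were 819.9 to 1086 CPM in TolDC + LPS, 501.5 to 513.9 in TolDC, 404 to 568 in BMDC + LPS and 469 to 495 in BMDC. Summed over 8 neutrophil markers, they were 166 to 493 CPM in TolDC + LPS, 122 to 622.5 in TolDC, 329.8 to 1612 in BMDC + LPS and 599 to 2505 in BMDC. The part of these other cells in the results below was not tested, and in bulk RNA fewer cells of a type and less RNA per cell cannot be told apart. The library numbered 1 in each group stood apart, with the lowest neutrophil sum. Against the other libraries, 17 of the 38 members were called higher in those 4 libraries, by 0.0627 to 0.175 on the log2 scale, where 8.82% of all genes were called higher. The number does not separate the groups, since each has 1 such library.

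The 38 genes together took 4.85%, 4.49% and 4.55% of the counts in TolDC + LPS, 4.39%, 4.29% and 4.31% in TolDC, 2.94%, 2.83% and 2.84% in BMDC + LPS, and 4.29%, 4.14% and 4.17% in BMDC. The share was lowest in the BMDC + LPS libraries and highest in the TolDC + LPS libraries, and neither range overlapped another group. Much of it came from Psap, which encodes prosaposin, the precursor of the saposins that present sphingolipids to lysosomal hydrolases. Psap took 2.27% ± 0.145 of the counts in TolDC + LPS, 1.82% ± 0.0212 in TolDC, 1.035% ± 0.0370 in BMDC + LPS and 1.43% ± 0.0178 in BMDC (SD, n = 3 each). Without Psap, the other 37 genes took 2.36% ± 0.0489 in TolDC + LPS, 2.505% ± 0.0404 in TolDC, 1.83% ± 0.0209 in BMDC + LPS and 2.77% ± 0.0693 in BMDC. Without Psap the TolDC + LPS share was below that of TolDC, and the BMDC share was the highest.

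**Figure D1:**
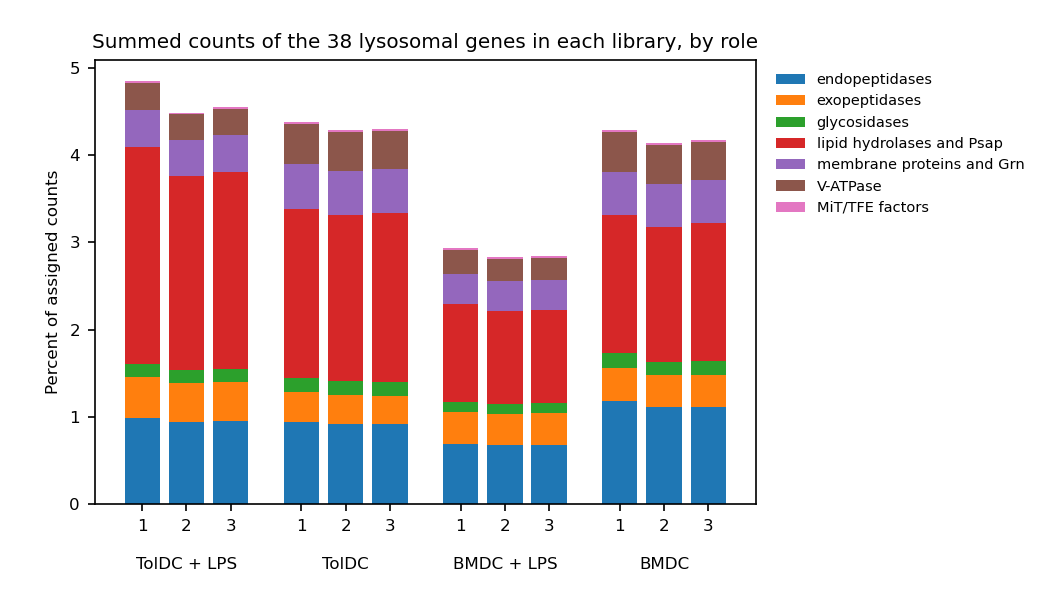
Percent of assigned counts taken by the 38 genes in each of the 12 libraries, stacked by role; the horizontal axis gives the library number within TolDC + LPS, TolDC, BMDC + LPS and BMDC. The BMDC + LPS libraries total 2.83% to 2.94%, below all others, and the red segment, mostly Psap, is tallest in TolDC + LPS.

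Levels of different genes were compared per kilobase of exon (RPKM). Psap ranked 1 of 38 in every group, at 8596 ± 700 RPKM in TolDC + LPS, 6437 ± 98.1 in TolDC, 3858 ± 225 in BMDC + LPS and 5046 ± 61.8 in BMDC. The cathepsins Ctsz, Ctsd, Ctss and Ctsb took ranks 2 to 5 in every group, in an order that differed. Ctss, the cysteine protease that makes the late cuts in the invariant chain, ranked 4 in TolDC + LPS at 806.9 ± 4.97 RPKM, close to Ctsb at 791 ± 44.8, which did not differ from it beyond the SD. In BMDC Ctss ranked 2 at 2317 ± 134 RPKM. Ctsz, a carboxypeptidase of the papain family, ranked 2 in TolDC + LPS at 2216 ± 121 RPKM and in BMDC + LPS at 1679 ± 62.9, and 3 in TolDC at 1070 ± 31.7 and in BMDC at 1047 ± 25.9. Lamp1 was at rank 6 in every group. Ctsk, a collagen-degrading protease best known from osteoclasts, was at rank 37 in TolDC + LPS, at 9.25 ± 0.937 RPKM, at rank 38 in TolDC, at 5.38 ± 0.324, at rank 33 in BMDC + LPS, at 20.1 ± 0.929, and at rank 25 in BMDC, at 68.0 ± 3.07. Of the pumps' membrane subunits, Atp6v0d2 exceeded its close relative Atp6v0d1 in every group, with 288 ± 21.6 against 141 ± 6.26 RPKM in TolDC + LPS and 448 ± 18.2 against 119 ± 0.687 RPKM in BMDC.

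With LPS, nearly as many members rose as fell in TolDC, and most fell in BMDC. In TolDC, 16 of the 38 members rose with LPS, where 35.4% of all genes tested did, and 19 fell, where 35.9% did. In BMDC, 5 members rose, against 36.7% of all genes, and 27 fell, against 36.4% of all genes. The median log2 change of the members was −0.075 in TolDC, beside −0.00168 over all genes, and −0.446 in BMDC, beside −0.000288 over all genes. With a change of at least 2-fold required, 1 member rose and 2 fell in TolDC (9.64% and 10.6% of all genes), and 7 fell in BMDC (11% of all genes). The difference between the responses, tested as an interaction, was positive for 30 members (20.4% of all genes), meaning that LPS shifted the gene further up or less far down in TolDC, and negative for 2 members, Scarb2 and Mitf (24% of all genes). Without the 4 libraries numbered 1, Lamp2 (−0.12) and Atp6v1a (−0.11) were also called negative. It was at least 2-fold for Ctsk, Hexa and Ppt1 (3.67% of all genes in that direction). Its median was 0.312, beside −0.00953 over all genes. The responses use separate libraries, while the interaction is built from both of them.

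The calls in both responses were then set side by side. Higher in TolDC and lower in BMDC were 8 members, Ctsa, Ctsb, Ctsd, Ctsk, Hexa, Psap, Cd63 and Atp6v0d1, a combination met by 2.05% of all genes. The reverse held for 1 member, Scarb2, and for 2.76% of all genes. Lower in both were 16 members, where 26.6% of all genes were, and higher in both were 4 members, Ctsz, Glb1, Cd68 and Mcoln1, where 26.9% of all genes were. The remaining members were called in TolDC or in BMDC but not in both.

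**Figure D2:**
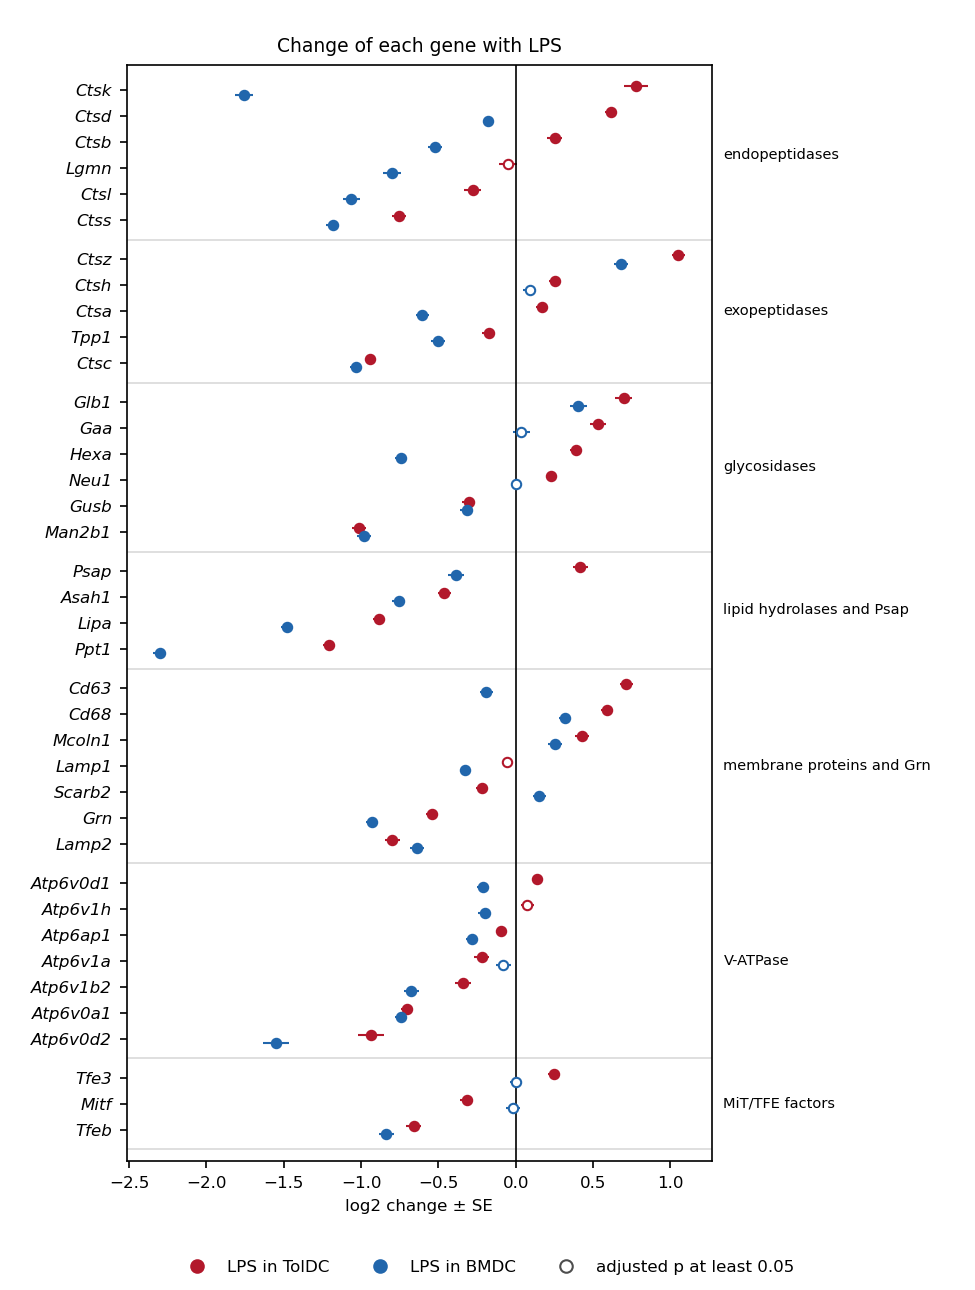
Change of each gene with LPS on the log2 scale ± SE from the edgeR model of 12 libraries, in TolDC (red) and in BMDC (blue), grouped by role; open symbols have an adjusted p of at least 0.05. For 30 genes the red symbol lies to the right of the blue one by a difference past the threshold.

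Among the endopeptidases, Ctsb, Ctsd and Ctsk moved in opposite directions and Ctss and Ctsl fell in both kinds of cell. Ctsd encodes cathepsin D, the main aspartic protease of lysosomes (ENSMUSG00000007891, chromosome 7, 142375911 to 142388038 of GRCm38, minus strand). It was at 3151, 3037 and 3086 CPM in TolDC + LPS, 2001, 2025 and 2031 CPM in TolDC, 1869, 1965 and 1944 CPM in BMDC + LPS, and 2155, 2160 and 2230 CPM in BMDC. The TolDC + LPS libraries were the highest of all and BMDC + LPS the lowest, with no overlap between the groups compared. LPS raised Ctsd in TolDC by 0.61 ± 0.035 (edgeR adjusted p = 1.1e-11) and lowered it in BMDC (−0.18 ± 0.035, adjusted p = 0.00014), and the responses differed by 0.79 ± 0.05 (adjusted p = 5.02e-10). Its exons overlap those of Gm49369 on the same strand, so reads of the shared part cannot be assigned and its level is uncertain.

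Ctsb encodes cathepsin B, an abundant cysteine protease that also trims peptides from their carboxyl end (ENSMUSG00000021939, chromosome 14, 63122462 to 63145923, plus strand). It was at 5092, 4574 and 4695 CPM in TolDC + LPS, 4172, 3934 and 3965 CPM in TolDC, 2896, 2640 and 2681 CPM in BMDC + LPS, and 4061, 3823 and 3911 CPM in BMDC. TolDC and BMDC without LPS overlapped, and the LPS libraries lay above them in TolDC and below them in BMDC. The change was 0.25 ± 0.046 in TolDC (edgeR adjusted p = 8.88e-05) and −0.52 ± 0.046 in BMDC (adjusted p = 7.13e-09).

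Ctsk (ENSMUSG00000028111, chromosome 3, 95499256 to 95509362, plus strand) had the largest difference between the responses in the list. It was at 12.6, 15.4 and 13.99 CPM in TolDC + LPS, 7.65, 8.12 and 8.63 CPM in TolDC, 32.0, 29.4 and 29.7 CPM in BMDC + LPS, and 108, 99.9 and 100.5 CPM in BMDC. All TolDC libraries were below all BMDC libraries, with and without LPS. LPS raised it in TolDC by 0.78 ± 0.078 (edgeR adjusted p = 3.96e-08) and changed it by −1.76 ± 0.059 in BMDC (adjusted p = 4.09e-15), an interaction of 2.53 ± 0.097 (adjusted p = 9.24e-13). Summed over 7 osteoclast markers, levels were 563 to 567 CPM in TolDC + LPS, 650.1 to 680.3 in TolDC, 889 to 944 in BMDC + LPS and 604 to 615 in BMDC. The markers did not move together. Of the 6 tested, 3 rose and 3 fell with LPS in TolDC (35.4% and 35.9% of all genes). In BMDC, 2 rose and 3 fell (36.7% and 36.4% of all genes). Without LPS, 3 were higher and 3 lower in TolDC than in BMDC (32% and 30.4% of all genes). Unlike Ctsk, Ocstamp and Dcstamp were higher in TolDC than in BMDC without LPS, and Acp5 rose with LPS in both. Itgb3, an integrin chain named here after its values were seen, had its groups in the order of Ctsk. It was at 32.9 to 37.6 CPM in TolDC + LPS, 23.9 to 29.3 in TolDC, 38.3 to 49.7 in BMDC + LPS and 88.7 to 90.2 in BMDC. It rose with LPS in TolDC by 0.39 ± 0.095 (edgeR adjusted p = 0.00239) and fell in BMDC (adjusted p = 3.45e-07). Calcr, the calcitonin receptor, had no read in 11 of the 12 libraries. The part of such cells in the Ctsk result was not tested.

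Ctss (ENSMUSG00000038642, chromosome 3, 95526786 to 95556403, plus strand) was at 1103, 1091 and 1093 CPM in TolDC + LPS, 1921, 1849 and 1784 CPM in TolDC, 1443, 1331 and 1376 CPM in BMDC + LPS, and 3349, 3092 and 2997 CPM in BMDC. The level was lowest in TolDC + LPS, then BMDC + LPS and TolDC, and highest in BMDC, without overlap. The change with LPS was −0.76 ± 0.045 in TolDC and −1.19 ± 0.045 in BMDC (edgeR adjusted p = 1.9e-11 and 2.18e-14), and the fall was smaller in TolDC (interaction 0.43 ± 0.063, adjusted p = 2.09e-05). Ctsl, cathepsin L, which acts on the invariant chain in the thymic epithelium, averaged 267 ± 14.0 CPM in TolDC + LPS, 325 ± 10.4 in TolDC, 301 ± 23.9 in BMDC + LPS and 630.5 ± 32.2 in BMDC (SD, n = 3 each). It fell with LPS in both (−0.28 ± 0.055 in TolDC and −1.06 ± 0.055 in BMDC). A pseudogene, Gm49230, overlaps its exons on the same strand. Lgmn, the asparagine-specific protease legumain, fell in BMDC by 0.80 ± 0.06 (edgeR adjusted p = 3.12e-09), where its mean was 589 ± 44.5 CPM with LPS and 1026 ± 52.8 CPM without. In TolDC it averaged 728 ± 53.1 CPM with LPS and 754 ± 33.7 CPM without, and the groups overlapped (−0.051 ± 0.06, adjusted p = 0.463).

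**Figure D3:**
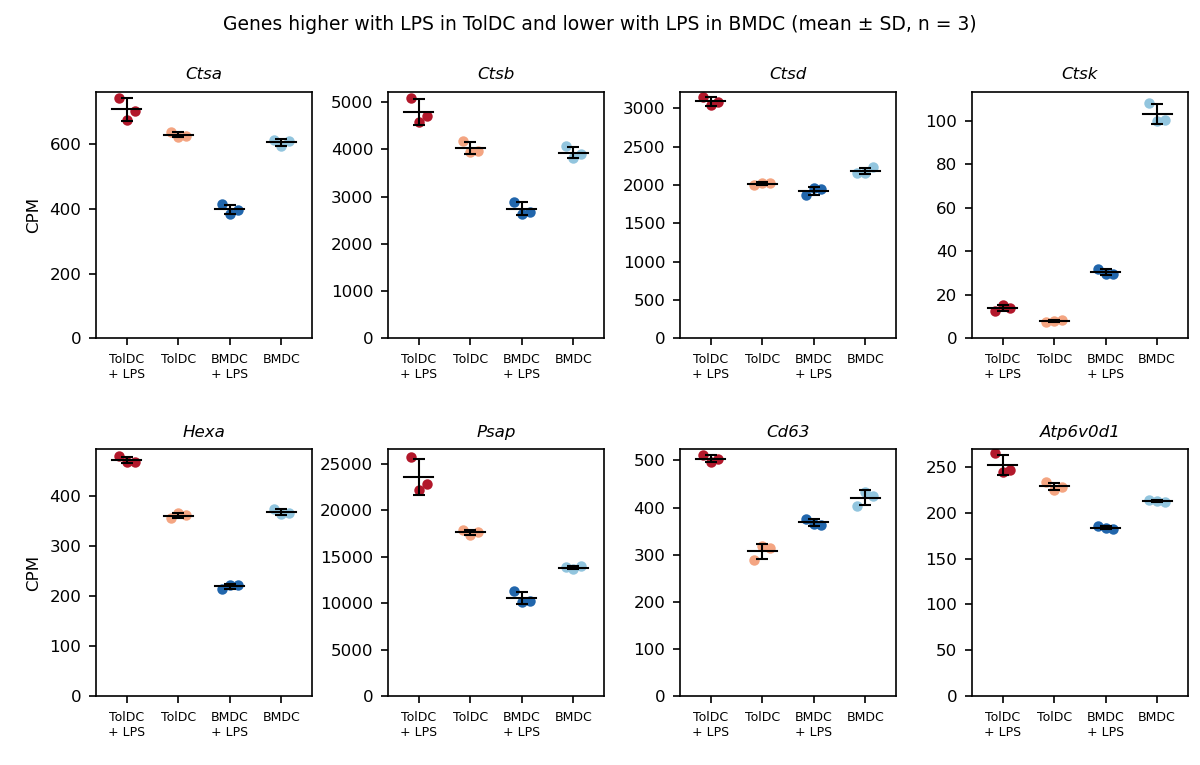
CPM of the 8 genes called higher with LPS in TolDC and lower with LPS in BMDC, 1 point per library, with mean and SD (n = 3) for TolDC + LPS, TolDC, BMDC + LPS and BMDC. In each panel TolDC + LPS lies above TolDC and BMDC + LPS below BMDC; Ctsk is the panel in which BMDC is the highest group, and its TolDC libraries stay under 16 CPM.

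Of the exopeptidases, Ctsz rose in both kinds of cell and Ctsc fell in both. Ctsz (ENSMUSG00000016256, chromosome 2, 174427493 to 174439039, minus strand) was at 3384, 3044 and 3153 CPM in TolDC + LPS, 1589, 1538 and 1498 CPM in TolDC, 2523, 2352 and 2384 CPM in BMDC + LPS, and 1551, 1480 and 1496 CPM in BMDC. TolDC and BMDC overlapped, and with LPS every TolDC library was above every BMDC library. Its change of 1.05 ± 0.044 in TolDC (edgeR adjusted p = 1.06e-13) was the largest rise in the list, and the change in BMDC was 0.68 ± 0.044 (adjusted p = 5.64e-11). Ctsc, the dipeptidyl peptidase that activates granule serine proteases of other leukocytes, was at 264, 263 and 272 CPM in TolDC + LPS, 515, 508 and 509 CPM in TolDC, 487, 499.9 and 498 CPM in BMDC + LPS, and 1029, 1013 and 1004 CPM in BMDC. The 4 groups did not overlap, although TolDC and BMDC + LPS lay close together. The change with LPS was −0.94 ± 0.034 in TolDC and −1.04 ± 0.034 in BMDC, and the difference between these was 0.096 ± 0.047 (adjusted p = 0.11; 95% interval −0.0033 to 0.195).

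Ctsa encodes the protective protein that stabilises β-galactosidase and neuraminidase (ENSMUSG00000017760, chromosome 2, 164832873 to 164841032, plus strand). It was at 742, 674 and 701 CPM in TolDC + LPS, 636, 622 and 625 CPM in TolDC, 413, 385 and 395 CPM in BMDC + LPS, and 613, 593 and 608 CPM in BMDC. It rose by 0.17 ± 0.041 in TolDC (edgeR adjusted p = 0.00106) and changed by −0.60 ± 0.041 in BMDC (adjusted p = 1.24e-10). The partners of its complex did not share this pattern. Glb1, which encodes β-galactosidase, rose in both, to 158 ± 10.4 CPM in TolDC + LPS against 97.4 ± 2.10 in TolDC and to 141 ± 11.2 CPM in BMDC + LPS against 106 ± 4.76 in BMDC. Neu1, the neuraminidase, rose in TolDC, to 173 ± 1.59 CPM with LPS against 147 ± 1.38 CPM without, and averaged 158 ± 0.597 CPM in BMDC + LPS and 158 ± 5.21 CPM in BMDC. Glb1 shares exon sequence on its strand with Tmppe, and its level is uncertain for that reason. Ctsh, an aminopeptidase, rose in TolDC by 0.25 ± 0.039, and its change in BMDC was 0.089 ± 0.04 (adjusted p = 0.0512), which was called without TolDC + LPS library 1 or 2 or BMDC + LPS library 2 (0.089 to 0.11). Tpp1, a tripeptidyl peptidase, fell in both (−0.18 ± 0.044 in TolDC and −0.51 ± 0.044 in BMDC).

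Among the other glycosidases, Hexa moved in opposite directions. It encodes the α-chain of β-hexosaminidase, which removes terminal sugars from gangliosides (ENSMUSG00000025232, chromosome 9, 59539540 to 59565109, plus strand). It was at 481, 469 and 469 CPM in TolDC + LPS, 357, 367 and 362 CPM in TolDC, 215, 222 and 223 CPM in BMDC + LPS, and 376, 364 and 367 CPM in BMDC. The unstimulated groups overlapped, and with LPS the TolDC libraries were at more than 2 times the level of the BMDC libraries. The changes were 0.39 ± 0.034 in TolDC (edgeR adjusted p = 7.96e-09) and −0.74 ± 0.035 in BMDC (adjusted p = 5.08e-13), and they differed by 1.13 ± 0.049 (adjusted p = 4.66e-12). Gaa, the acid α-glucosidase that degrades glycogen, rose in TolDC, to 260 ± 16.7 CPM with LPS against 180 ± 9.23 CPM without, and averaged 165 ± 6.31 CPM in BMDC + LPS and 161 ± 9.81 CPM in BMDC. Man2b1, lysosomal α-mannosidase, fell in both, to 260 ± 4.17 CPM in TolDC + LPS against 525 ± 10.6 in TolDC and by a log2 change of −0.98 ± 0.045 in BMDC, where it averaged 493 ± 31.7 CPM without LPS. The difference between its responses was −0.03 ± 0.064 (adjusted p = 0.736; 95% interval −0.164 to 0.103). Gusb, β-glucuronidase, likewise fell in both (−0.31 ± 0.042 in TolDC and −0.32 ± 0.042 in BMDC).

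Among the members grouped as lipid and thioester hydrolases, Ppt1, Lipa and Asah1 fell in both kinds of cell, and further in BMDC. Ppt1, the palmitoyl-protein thioesterase (ENSMUSG00000028657, chromosome 4, 122836242 to 122859175, plus strand), was at 113, 106 and 107 CPM in TolDC + LPS, 253, 248 and 251 CPM in TolDC, 86.7, 82.2 and 84.3 CPM in BMDC + LPS, and 430, 412 and 407 CPM in BMDC. Without LPS every BMDC library was above every TolDC library, and with LPS every BMDC library was below. The change was −1.21 ± 0.039 in TolDC and −2.30 ± 0.04 in BMDC (edgeR adjusted p = 2.42e-15 and 3.24e-19), the largest fall of a member in either, with an interaction of 1.09 ± 0.055 (adjusted p = 3.17e-11). Lipa, the acid lipase that frees cholesterol and fatty acids from endocytosed lipids, was at 278, 269 and 274 CPM in TolDC + LPS, 527, 493 and 498 CPM in TolDC, 280, 268 and 268 CPM in BMDC + LPS, and 782, 749 and 744 CPM in BMDC. The groups with LPS overlapped, and the interaction was 0.59 ± 0.054 (adjusted p = 6.91e-08). Asah1, acid ceramidase, fell in both (−0.46 ± 0.041 in TolDC and −0.76 ± 0.041 in BMDC).

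Psap (ENSMUSG00000004207, chromosome 10, 60277627 to 60302597, plus strand) went the other way in TolDC. It was at 25774, 22179 and 22808 CPM in TolDC + LPS, 17916, 17381 and 17696 CPM in TolDC, 11300 (library 1), 10183 and 10280 CPM in BMDC + LPS, and 13918, 13652 and 13967 CPM in BMDC. The 4 groups did not overlap, and the library numbered 1 was the highest in both LPS groups. The change was 0.42 ± 0.05 in TolDC (edgeR adjusted p = 5.7e-07) and −0.39 ± 0.05 in BMDC (adjusted p = 1.38e-06), and the responses differed by 0.80 ± 0.071 (adjusted p = 5.04e-08).

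**Figure D4:**
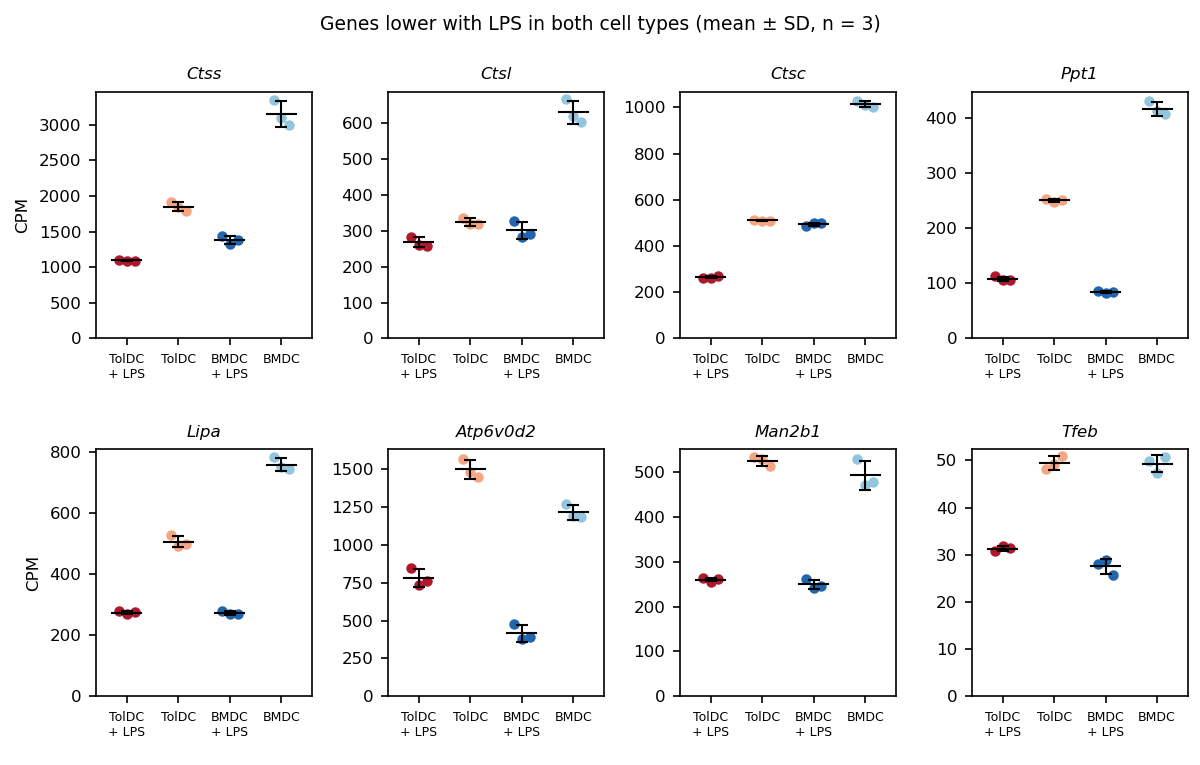
CPM of 8 of the 16 genes called lower with LPS in both kinds of cell, 1 point per library, with mean and SD (n = 3) for TolDC + LPS, TolDC, BMDC + LPS and BMDC. BMDC starts higher than TolDC for Ctss, Ctsl, Ctsc, Ppt1 and Lipa; for Lipa the LPS groups of both kinds of cell overlap, at 268 to 280 CPM.

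Of the membrane proteins, Cd63 and Cd68 rose in TolDC and Lamp2 fell. Cd63, a tetraspanin of late endosomes and their internal vesicles (ENSMUSG00000025351, chromosome 10, 128900989 to 128912822, plus strand), was at 512, 496 and 503 CPM in TolDC + LPS, 288, 318 and 315 CPM in TolDC, 376, 365 and 364 CPM in BMDC + LPS, and 402, 433 and 425 CPM in BMDC. TolDC was the lowest group without LPS and the highest with it. The changes of 0.71 ± 0.042 in TolDC (edgeR adjusted p = 2.01e-11) and −0.19 ± 0.042 in BMDC (adjusted p = 0.000503) differed by 0.90 ± 0.06 (adjusted p = 1.12e-09). Cd68, a heavily glycosylated protein of macrophage and dendritic cell endosomes, rose in both, to 503 ± 17.0 CPM in TolDC + LPS against 335 ± 5.18 in TolDC and to 392 ± 13.0 CPM in BMDC + LPS against 314 ± 0.448 in BMDC. Lamp2, which takes part in chaperone-mediated autophagy and in the fusion of autophagosomes, was at 704, 634 and 672 CPM in TolDC + LPS, 1203, 1131 and 1159 CPM in TolDC, 567, 513 and 513 CPM in BMDC + LPS, and 824, 829.8 and 827 CPM in BMDC. It fell in both (−0.80 ± 0.046 in TolDC and −0.64 ± 0.046 in BMDC), a difference of −0.16 ± 0.065 that missed the threshold (adjusted p = 0.0551). That difference was called without TolDC + LPS library 1 (−0.19, adjusted p = 0.0142), without BMDC + LPS library 2 or 3 (−0.18 each) and by DESeq2 (adjusted p = 0.0456). Its relative Lamp1 fell in BMDC by 0.33 ± 0.033 (adjusted p = 3.7e-08), with 1160 ± 13.6 CPM in BMDC + LPS and 1456 ± 2.99 CPM in BMDC, and averaged 1494 ± 23.0 CPM in TolDC + LPS and 1552 ± 17.6 CPM in TolDC (−0.054 ± 0.033, adjusted p = 0.146).

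Scarb2 encodes LIMP-2, the receptor that carries glucocerebrosidase to lysosomes (ENSMUSG00000029426, chromosome 5, 92441314 to 92506833, minus strand). It was at 263, 251 and 258 CPM in TolDC + LPS, 303, 301 and 293 CPM in TolDC, 252, 232 and 234 CPM in BMDC + LPS, and 225, 212 and 210 CPM in BMDC. TolDC was the highest group without LPS, and the LPS groups overlapped. The change was −0.22 ± 0.041 in TolDC (edgeR adjusted p = 0.000111) and 0.15 ± 0.041 in BMDC (adjusted p = 0.00308), where upper-quartile scaling gave 0.068 and no call. Their difference was −0.37 ± 0.058 (adjusted p = 4.86e-05). Mcoln1, the lysosomal calcium channel whose opening activates TFEB through calcineurin, rose in both, by 0.43 ± 0.044 in TolDC and 0.25 ± 0.045 in BMDC. Grn, the precursor of the granulins, which reaches lysosomes partly together with prosaposin, fell in both, to 853 ± 28.8 CPM in TolDC + LPS against 1241 ± 11.9 in TolDC and to 793 ± 19.8 CPM in BMDC + LPS against 1513 ± 34.2 in BMDC.

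The V-ATPase subunits fell with LPS more often than they rose: of 7, 5 were lower and 1 was higher in TolDC (35.9% and 35.4% of all genes), and 6 were lower in BMDC (36.4% of all genes). The 12 further subunits tested did not share this pattern in TolDC, where 7 were higher and 2 lower with LPS, while 3 were higher and 7 lower in BMDC. Atp6v0d2, a V0 subunit with a role in the fusion of osteoclasts and macrophages (ENSMUSG00000028238, chromosome 4, 19876841 to 19922605, minus strand), was at 849, 737 and 760 CPM in TolDC + LPS, 1571, 1480 (library 2) and 1446 CPM in TolDC, 479, 378 and 389 CPM in BMDC + LPS, and 1273, 1191 and 1184 CPM in BMDC. Without overlap, the LPS libraries were lower in each kind of cell and TolDC lay above BMDC. The change was −0.94 ± 0.084 in TolDC and −1.55 ± 0.085 in BMDC (edgeR adjusted p = 7.24e-07 and 6.36e-09), and they differed by 0.61 ± 0.12 (adjusted p = 0.0013). Atp6v0d1, the widely expressed form of the same subunit, was the member that rose in TolDC, with 252 ± 11.2 CPM in TolDC + LPS, 229 ± 4.08 in TolDC, 184 ± 1.63 in BMDC + LPS and 213 ± 1.23 in BMDC. Its changes were 0.14 ± 0.037 in TolDC and −0.21 ± 0.038 in BMDC. Atp6v0a1, the proton-channel subunit, fell in both (−0.71 ± 0.039 in TolDC and −0.74 ± 0.039 in BMDC), and the difference of 0.035 ± 0.055 was not called (adjusted p = 0.642; 95% interval −0.080 to 0.151). In the V1 part, Atp6v1b2, which forms the nucleotide-binding ring together with Atp6v1a, fell in both (−0.34 ± 0.05 in TolDC and −0.68 ± 0.05 in BMDC). Atp6v1a itself fell in TolDC by 0.22 ± 0.049, and its change in BMDC was −0.081 ± 0.049 (adjusted p = 0.149), and −0.14 without BMDC + LPS library 1 (adjusted p = 0.0145). Atp6v1h, which couples V1 to V0, fell in BMDC by 0.20 ± 0.043, and its change in TolDC was 0.073 ± 0.042 (adjusted p = 0.128), and 0.085 without BMDC library 3 (adjusted p = 0.0468). The accessory subunit gene Atp6ap1 fell in BMDC by 0.28 ± 0.036.

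The 3 transcription factors had low levels and did not move together. Tfeb (ENSMUSG00000023990, chromosome 17, 47737030 to 47792419, plus strand) was at 30.8, 31.8 and 31.4 CPM in TolDC + LPS, 48.1, 49.3 and 51.0 CPM in TolDC, 28.1, 28.8 and 25.8 CPM in BMDC + LPS, and 49.9, 47.4 and 50.7 CPM in BMDC. It fell with LPS in both kinds of cell without overlap (−0.66 ± 0.047 in TolDC and −0.84 ± 0.049 in BMDC, edgeR adjusted p = 3.47e-10 and 1.51e-11). Tfe3 (ENSMUSG00000000134, chromosome X, 7762560 to 7775202, plus strand) rose in TolDC, to 111 ± 0.934 CPM with LPS against 93.5 ± 0.572 CPM without (0.25 ± 0.035, adjusted p = 4.92e-06). In BMDC it averaged 92.8 ± 2.22 CPM with LPS and 92.9 ± 2.43 CPM without (−0.001 ± 0.036, adjusted p = 0.981). Mitf (ENSMUSG00000035158, chromosome 6, 97807052 to 98021349, plus strand) fell in TolDC, to 68.4 ± 0.805 CPM with LPS against 85.3 ± 3.08 CPM without (−0.32 ± 0.042, adjusted p = 1.65e-06). In BMDC it averaged 65.8 ± 3.25 CPM with LPS and 66.7 ± 1.37 CPM without (adjusted p = 0.713), and the difference between its responses was −0.30 ± 0.06 (adjusted p = 0.000504). The activity of these factors depends on their phosphorylation and their place in the cell, which transcript levels do not show. The members with TCACGTGA shown above had mixed responses: Ctsd, Ctsa and Atp6v0d1 moved in opposite directions in TolDC and BMDC, Mcoln1 rose in both, and Atp6v1a fell in TolDC.

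Between the kinds of cell, the list lay mostly higher in TolDC with LPS and was split without it. With LPS, 28 members were higher in TolDC than in BMDC, where 34.3% of all genes were, and 5 were lower, where 33.7% were. Without LPS, 13 were higher (32% of all genes) and 15 were lower (30.4% of all genes). The median log2 difference was 0.235 with LPS, beside 0.0241 over all genes, and −0.0118 without LPS, beside 0.00907 over all genes. Higher with LPS and lower without were 8 members, Asah1, Atp6ap1, Cd63, Ctsd, Grn, Lgmn, Neu1 and Ppt1, where 3.08% of all genes were. Of these, Cd63, Lgmn and Ppt1 kept both calls under each alternative run, and the other 5 lost at least 1 of them: with libraries 2 and 3 of each group summed, the values no longer called included Asah1 (0.11), Neu1 (0.12) and Grn (0.10) with LPS and Ctsd (−0.12) without it. These 2 comparisons share no library.

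With LPS, Psap, Hexa, Atp6v0d2, Ctsa, Ctsb, Ctsd and Gaa were the members furthest above BMDC. The difference was 1.16 ± 0.051 for Psap and 1.10 ± 0.035 for Hexa (edgeR adjusted p = 4.94e-13 and 2.95e-15), the members that passed 2-fold upward (6.85% of all genes). It was 0.91 ± 0.084 for Atp6v0d2, 0.83 ± 0.041 for Ctsa, 0.81 ± 0.047 for Ctsb, 0.68 ± 0.035 for Ctsd and 0.66 ± 0.054 for Gaa. Without LPS, of these 7 genes, Ctsb, Ctsa and Hexa were not called, at 0.033 ± 0.046, 0.054 ± 0.041 and −0.028 ± 0.035, while Psap was higher in TolDC by 0.35 ± 0.05 (adjusted p = 7.42e-06). Ctsh was higher in TolDC with LPS, by 0.57 ± 0.04, and without it, by 0.40 ± 0.04. The members lower in TolDC in both comparisons were Ctsk, Ctsc, Ctss, Ctsl and Atp6v0a1. The log2 difference of Ctsk was −1.12 ± 0.066 with LPS and −3.66 ± 0.069 without it, where 9.5% and 8.03% of all genes were lower by at least 2-fold, that of Ctsc −0.89 ± 0.034 with and −0.99 ± 0.034 without, and that of Ctss −0.34 ± 0.044 with and −0.77 ± 0.045 without. For Ctsl it was −0.96 ± 0.055 without LPS (adjusted p = 4.87e-11). With LPS its difference of −0.17 ± 0.055 (adjusted p = 0.01) was no longer called without BMDC + LPS library 1 (−0.10) or without TolDC + LPS library 3 (−0.14). Ppt1 was higher in TolDC with LPS (0.36 ± 0.04) and lower without it (−0.73 ± 0.038). Mitf, Lamp2 and Scarb2 were higher in TolDC without LPS, by 0.35 ± 0.042, 0.49 ± 0.046 and 0.47 ± 0.041.

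**Figure D5:**
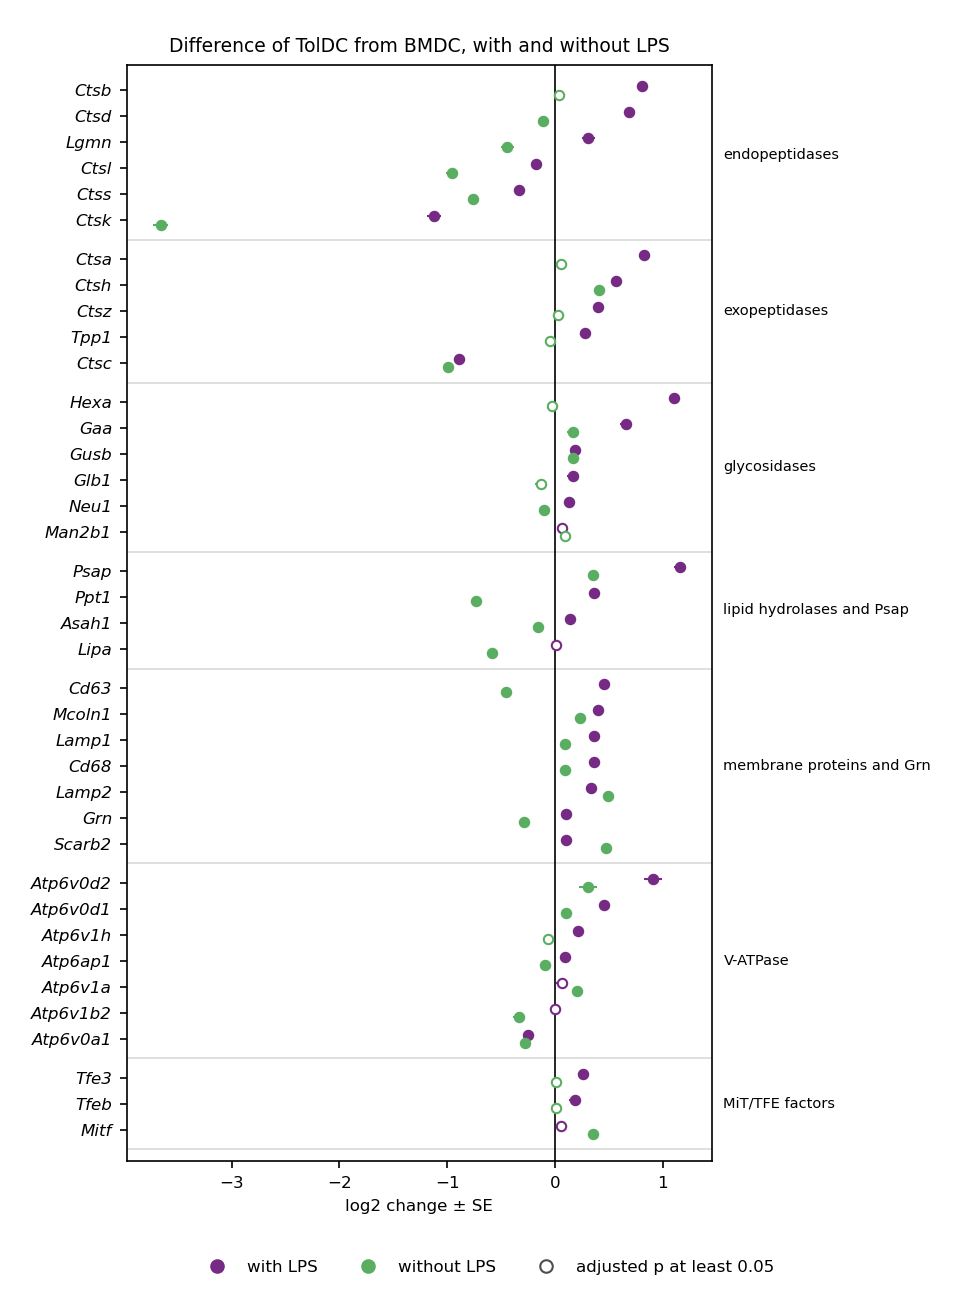
Difference of TolDC from BMDC for each gene on the log2 scale ± SE, with LPS (purple) and without LPS (green), grouped by role; open symbols have an adjusted p of at least 0.05. Most purple symbols lie to the right of zero, and the green symbol of Ctsk, at −3.66, lies furthest to the left.

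Several small differences, all under 0.2 on the log2 scale, lost their call when 1 library was left out. With LPS, the TolDC excess of Glb1 (0.16 ± 0.055) was not called without TolDC + LPS library 1 (0.10) or BMDC + LPS library 2 (0.11). That of Grn (0.10 ± 0.037) was lost without TolDC + LPS library 1 (0.067), BMDC + LPS library 2 (0.091) or BMDC + LPS library 3 (0.0995). For Atp6ap1 (0.095 ± 0.035) the value was 0.071 to 0.094 without TolDC + LPS library 1 or 3 or BMDC + LPS library 2 or 3, and for Scarb2 (0.10 ± 0.041) it was 0.076 to 0.10 without any of the same 4 or BMDC library 3. The members concerned without LPS were a partly different set. Gaa (0.17 ± 0.054) had 0.12 to 0.14 without TolDC library 1 or BMDC library 2 or 3, and Neu1 (−0.10 ± 0.035) had −0.095 without TolDC library 2 and −0.076 without BMDC library 1. Atp6v0d1 (0.11 ± 0.037) had 0.093 without TolDC library 1 and 0.079 without BMDC library 3. Lamp1 (0.091 ± 0.033) had 0.070 to 0.093 without TolDC library 1 or 2 or BMDC library 2 or 3, and Atp6ap1 (−0.094 ± 0.035) had −0.0935 to −0.084 without TolDC library 2 or 3 or BMDC library 1 or 2. All of these values stayed on the same side of 0, and those of Glb1 and Grn without TolDC + LPS library 1 moved by more than 1.5 times. Cd68 (0.089 ± 0.037) had 0.066 to 0.098 over the 10 libraries whose omission ended its call, all but TolDC + LPS library 2 and BMDC + LPS library 1. The fall of Atp6ap1 with LPS in TolDC (−0.096 ± 0.035) was lost, at −0.099 to −0.078, without TolDC + LPS library 2 or 3 or TolDC library 1 or 2. Among the interactions, Ctsh (0.16 ± 0.056) had 0.14 to 0.16 without TolDC + LPS library 1 or 3, TolDC library 3 or BMDC + LPS library 2. Mcoln1 (0.17 ± 0.062) had 0.14 to 0.17 without TolDC + LPS library 1, TolDC library 2 or 3, BMDC + LPS library 2 or 3 or BMDC library 3. Tfeb (0.18 ± 0.068) had 0.13 to 0.18 without TolDC + LPS library 2 or 3, TolDC library 1 or 2, BMDC + LPS library 3 or BMDC library 1 or 3. The 8 members with opposite responses kept both calls under each of the alternatives run.

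Other lysosomal genes, listed by role from general knowledge, were set beside the members. Earlier results of these data were known when both were chosen, so the counts below are no independent check on the members. Of 110 such genes, 106 were tested. With LPS, 50 of these rose and 37 fell in TolDC, while 32 rose and 55 fell in BMDC, where 35.4% and 35.9% of all genes did in TolDC and 36.7% and 36.4% in BMDC. The interaction was positive for 61 and negative for 15 (20.4% and 24% of all genes). With LPS, 57 were higher in TolDC than in BMDC and 23 were lower (34.3% and 33.7% of all genes), and without LPS 29 were higher and 52 lower (32% and 30.4% of all genes). By role, the interaction was positive for 20 and negative for 2 of 25 genes listed as glycan and sulfate hydrolases. This list also holds genes of other kinds, among them the phosphatases Acp2 and Acp5, the activator protein Gm2a and the acetyltransferase Hgsnat. Gnpda1 and Engase, also listed there, encode enzymes of the cytosol. The interaction was positive for 9 and negative for 2 of 12 further V-ATPase subunits. It was positive for 11 and negative for 3 of 25 membrane and transport proteins, and positive for 8 and negative for 1 of 13 nutrient-sensing proteins of the lysosome surface. For proteases and nucleases it was positive for 6 and negative for 2 of 14, and for sorting proteins positive for 5 and negative for 3 of 12. For the list of cathepsin inhibitors it was positive for 2 and negative for 2 of 5. That list includes Serpinb9, an inhibitor of granzyme B, whose interaction was negative (−0.991).

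In the V-ATPase, Atp6v0b, a proteolipid of the proton-carrying ring, was at 499, 475 and 487 CPM in TolDC + LPS, 255, 273 and 271 CPM in TolDC, 306, 313 and 310 CPM in BMDC + LPS, and 254, 258 and 263 CPM in BMDC. It rose in both, by 0.87 ± 0.037 in TolDC and 0.26 ± 0.037 in BMDC, with an interaction of 0.61 ± 0.053 (edgeR adjusted p = 3.64e-08). Atp6v1g1, a stalk subunit, fell in both (−0.56 ± 0.037 in TolDC and −1.07 ± 0.038 in BMDC). Subunits of the same pump therefore had LPS responses of unlike sign within each kind of cell.

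Proteins that carry hydrolases to lysosomes also moved apart. Gga2, an adaptor that collects mannose 6-phosphate receptors at the trans-Golgi network, was at 139, 125 and 134 CPM in TolDC + LPS, 47.5, 43.3 and 44.5 CPM in TolDC, 49.2, 47.2 and 45.6 CPM in BMDC + LPS, and 56.3, 56.2 and 53.9 CPM in BMDC. TolDC + LPS was the group that stood apart. Gga2 rose in TolDC by 1.56 ± 0.048 and changed by −0.23 ± 0.05 in BMDC (interaction 1.79 ± 0.069, edgeR adjusted p = 9.35e-13). Igf2r, the larger of the mannose 6-phosphate receptors, rose in both, to 118 ± 3.57 CPM in TolDC + LPS against 55.9 ± 4.69 in TolDC and to 60.8 ± 5.84 CPM in BMDC + LPS against 48.1 ± 5.85 in BMDC. Sort1, sortilin, a sorting receptor that binds prosaposin and progranulin, fell in both, to 60.1 ± 6.84 CPM in TolDC + LPS against 142 ± 3.92 in TolDC and to 65.4 ± 6.42 CPM in BMDC + LPS against 228 ± 7.68 in BMDC.

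Cathepsin inhibitors differed between the kinds of cell. Cst3, the secreted inhibitor cystatin C, was at 1395, 1249 and 1312 CPM in TolDC + LPS, 1123, 1152 and 1157 CPM in TolDC, 2734, 2627 and 2671 CPM in BMDC + LPS, and 1979, 2012 and 2094 CPM in BMDC. It was lower in TolDC with LPS (−1.02 ± 0.042) and without it (−0.83 ± 0.042; edgeR adjusted p = 1.23e-13 and 3.42e-12). Cst7, cystatin F, which is targeted to lysosomes, rose with LPS in both, to 160 ± 4.62 CPM in TolDC + LPS against 24.0 ± 3.26 in TolDC and to 74.5 ± 6.64 CPM in BMDC + LPS against 16.3 ± 4.68 in BMDC.

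Of the remaining groups, Acp5, the tartrate-resistant acid phosphatase, had the largest rise with LPS in TolDC, by 3.77 ± 0.073 on the log2 scale, to 192 ± 16.4 CPM in TolDC + LPS against 14.0 ± 0.618 in TolDC and to 514 ± 24.7 CPM in BMDC + LPS against 104 ± 7.45 in BMDC. Slc11a1, a divalent metal transporter of phagosomes, had the largest rise in BMDC, by 3.26 ± 0.095 on the log2 scale, and went up in both, to 139 ± 13.7 CPM in TolDC + LPS against 10.9 ± 0.938 in TolDC and to 99.7 ± 6.01 CPM in BMDC + LPS against 10.4 ± 1.17 in BMDC. Gpnmb, a transmembrane glycoprotein of lysosomes and melanosomes, was at 4702, 4027 and 4204 CPM in TolDC + LPS, 2480 (library 1), 2302 and 2244 CPM in TolDC, 516, 455 and 474 CPM in BMDC + LPS, and 738, 667 and 684 CPM in BMDC. All TolDC libraries were above all BMDC libraries, by 3.16 ± 0.067 with LPS and 1.75 ± 0.063 without. It rose with LPS in TolDC (0.88 ± 0.062) and fell in BMDC (−0.53 ± 0.062), as the 8 members above did. The nucleic-acid-degrading enzymes Dnase2a and Pld4 fell in both, with changes of −1.48 ± 0.038 in TolDC and −1.87 ± 0.04 in BMDC for Dnase2a and of −1.90 ± 0.053 in TolDC and −1.61 ± 0.054 in BMDC for Pld4. Fnip2, a partner of folliculin in the signalling of amino acids to mTORC1, rose in TolDC by 0.37 ± 0.048 and fell in BMDC (−0.65 ± 0.048).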

How the data were processed

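Whole-number counts per gene were deposited by the authors, 1 table per library, with columns for reads counted without regard to strand and on each strand. The submitters' processing notes name cutadapt, STAR, edgeR, limma and the builds mm10 and GRCm38. They give no version, annotation or setting. The libraries came from a stranded kit per the labels, and column 4, at least 35.16 times column 3 in total, was used. Reads matching several places were not counted. Of 31053 identifiers, 31011 matched GENCODE M21, which gave symbols, coordinates and exon lengths. The row EGFP, with 0 counts throughout, was left out. Assigned reads were 79.3% to 80.6% of each table.

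Genes were filtered with filterByExpr, scaled with TMM factors (0.945 to 1.04) and fitted with edgeR 4.0.16 in R 4.3.3 (robust quasi-likelihood, 12 libraries, 1 mean per group, coefficient of variation 0.0572). P-values were adjusted by Benjamini-Hochberg over 13141 genes, with calls made at adjusted p under 0.05. The procedure was tested on simulated data with independent libraries and no shift by library number. These data differ in that respect, so the simulation does not show how the calls fare with such a shift. CPM use TMM library sizes, and RPKM divide by the union of annotated exons. The replicate number was not used as a block in this fit, although same-numbered libraries had correlated deviations from their group means. Over 18 same-numbered pairs the correlation was 0.091 to 0.466 (median 0.194), and 1 pair was at 0.1 or less. A fit with the block was run as an alternative. The members and the lists were chosen with earlier results of these data known. Named in the text are the members and, from each further list, up to 4 called genes per comparison with the largest change and at least 5 CPM in the higher group, a selection of which is shown. Other scalings, filters, tests, columns and left-out libraries were tried. Promoters are from RefSeq.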

Additional observations from a re-analysis of the deposited data

Results flagged for a closer look

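The test of the difference between the LPS responses (log2 change in TolDC minus log2 change in BMDC, edgeR, adjusted p below 0.05) singled out 32 of the 38 genes, and the values that the text has not given, or has given rounded, follow by role. For the endopeptidases it was 0.772 for Ctsb, 0.794 for Ctsd, 2.534 for Ctsk, 0.786 for Ctsl, 0.429 for Ctss and 0.750 for Lgmn. For the exopeptidases it was 0.774 for Ctsa, 0.162 for Ctsh, 0.369 for Ctsz and 0.329 for Tpp1. For the glycosidases it was 0.495 for Gaa, 1.131 for Hexa, 0.228 for Neu1 and 0.294 for Glb1. For the lipid group it was 0.593 for Lipa, 1.094 for Ppt1, 0.296 for Asah1 and 0.804 for Psap. For the membrane proteins and Grn it was 0.274 for Lamp1, 0.905 for Cd63, 0.270 for Cd68, −0.369 for Scarb2, 0.1735 for Mcoln1 and 0.390 for Grn. For the V-ATPase it was 0.3499 for Atp6v0d1, 0.6105 for Atp6v0d2, 0.335 for Atp6v1b2, 0.275 for Atp6v1h and 0.188 for Atp6ap1. For the transcription factors it was 0.178 for Tfeb, 0.2465 for Tfe3 and −0.2999 for Mitf. Gusb, Man2b1, Ctsc, Lamp2, Atp6v0a1 and Atp6v1a were not called, of which Ctsc, Lamp2 and Atp6v1a were called in some of the alternatives, for example without the 4 libraries numbered 1 (0.089 for Ctsc, −0.12 for Lamp2 and −0.11 for Atp6v1a).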

How the results depend on the processing

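Of 160 calls of members over the 5 comparisons, 141 held under every alternative run (2 other scalings, 2 other count filters, counts without regard to strand, DESeq2, limma-voom, a fit to only the groups compared, the replicate number as a block, each library left out, the 4 libraries numbered 1 left out, and libraries 2 and 3 summed). Leaving out each library gave 16 to 17 members higher and 18 to 19 lower with LPS in TolDC, 5 to 6 and 27 to 28 in BMDC, 24 to 29 and 4 to 5 for TolDC against BMDC with LPS, 9 to 13 and 13 to 17 without LPS, and 28 to 30 and 2 to 3 for the difference between responses. The other alternatives gave 16 to 17 and 18 to 21 for LPS in TolDC and 4 to 6 and 27 to 31 in BMDC. They gave 22 to 31 and 5 for TolDC against BMDC with LPS, 9 to 14 and 13 to 18 without LPS, and 27 to 31 and 2 to 4 for the difference. With libraries 2 and 3 summed, Asah1, Atp6ap1, Glb1, Grn, Neu1 and Scarb2 lost their call for TolDC against BMDC with LPS. With the replicate block, the counts higher and lower were 17 and 19 for LPS in TolDC, 6 and 28 for LPS in BMDC, 28 and 5 for TolDC against BMDC with LPS, 14 and 16 without LPS, and 30 and 4 for the difference between responses, against 2 lower without the block; the 2 added were Lamp2 (−0.16, adjusted p = 0.00516) and Atp6v1a (−0.14, adjusted p = 0.00779). Libraries correlated best with their own number in 10 of 12 cases. The same 4 members were called lower in the difference without the 4 libraries numbered 1. Libraries 2 and 3 of a group differed little beyond counting error, with a chi-square per degree of freedom of 1.376 to 2.399. Between library 1 and either of them it was 5.451 to 12.44. The 3 libraries of a group may therefore hold fewer than 3 independent samples. A change of sign met 2 values that were not called: Neu1 with LPS in BMDC became −0.081 (adjusted p = 0.0331) with upper-quartile factors, which shifted the median of all genes by −0.0826, and Tfeb in TolDC against BMDC without LPS became −0.14 (adjusted p = 0.0128) with counts without regard to strand. The cause was not tested.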

Other observations

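Some other lysosomal genes had large differences that the report has not described. Ids, the iduronate sulfatase, was at 13.7, 12.2 and 15.3 CPM in TolDC + LPS, 32.0, 30.1 and 34.8 CPM in TolDC, 52.6, 45.0 and 49.4 CPM in BMDC + LPS, and 42.1, 44.4 and 45.2 CPM in BMDC. It fell with LPS in TolDC by 1.23 ± 0.08 on the log2 scale, and its change in BMDC was 0.16 ± 0.072 (edgeR adjusted p = 0.054). The difference between the responses was −1.39 ± 0.11 (adjusted p = 2.1e-08). Arsb, another sulfatase, averaged 42.2 ± 0.665 CPM in TolDC + LPS, 58.2 ± 1.92 in TolDC, 7.34 ± 2.23 in BMDC + LPS and 14.9 ± 0.838 in BMDC (SD, n = 3 each). TolDC was above BMDC by 2.55 ± 0.15 with LPS and 1.97 ± 0.13 without. Cd164, a sialomucin of endosomes and lysosomes, was also higher in TolDC, by 0.91 ± 0.047 with LPS and 1.28 ± 0.047 without. Serpinb9, an inhibitor of granzyme B, was at 18.5, 20.2 and 19.1 CPM in TolDC + LPS, 12.7, 13.1 and 12.4 CPM in TolDC, 122, 131 and 125 CPM in BMDC + LPS, and 38.8, 44.3 and 42.7 CPM in BMDC. It rose with LPS in both kinds of cell, less in TolDC (interaction −0.99 ± 0.08, adjusted p = 1.33e-08). Lamtor4, a subunit of the Ragulator complex that anchors Rag GTPases to lysosomes, fell with LPS in BMDC by 0.73 ± 0.056, and its change in TolDC was 0.068 ± 0.052 (adjusted p = 0.247).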
